A study of Mus musculus with 18 samples.

Results

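The members described here are 10 transcription factors that set B-cell identity or direct B-cell differentiation: Irf4, Irf8, Bcl6, Prdm1, Pax5, Ebf1, Spib, Pou2af1, Bach2 and Xbp1. A probe set, the group of short probes that reads 1 transcript on the array, was taken as a member when the platform annotation gave it a single gene symbol and that symbol was one of the 10. This gave 23 probe sets of the 34945 with a single symbol, and 10 of 18193 genes. All 23 had signals above 15.2, the median of all values in the table, in at least 4 arrays and were kept. RNA was measured on 18 Affymetrix Mouse Genome 430 2.0 arrays in splenic B lymphocytes of C57BL/6J mice that carried CD23, an IgE receptor found mainly on follicular B cells. Mice were injected with vehicle or with PF-303, an inhibitor of the kinase BTK, which relays signals of the B-cell receptor. After 2 h they were given PBS or anti-IgD, which stimulates B cells by linking their receptors together, and the cells were harvested another 2 h later. There were 4 samples of PBS with vehicle, 5 of PBS with PF-303, 4 of anti-IgD with vehicle and 5 of anti-IgD with PF-303. Age, sex and dose are not given in the labels used here. Nor do the labels tie each sample to its own mouse, so every p-value refers to the variation among these samples, part of which may be technical.

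Pax5 and Ebf1 hold the B-cell program in place by activating B-lineage genes and keeping those of other lineages silent. In mature B cells, Bach2 and Bcl6 oppose the turn towards antibody secretion, and Prdm1, which encodes BLIMP1, together with Irf4 and Xbp1 drives it. Irf8 and Spib encode factors that bind DNA jointly on composite ETS-IRF elements, and Pou2af1 encodes OBF1, the coactivator of the octamer-binding factors OCT1 and OCT2.

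The 18 arrays had been scaled to one level, with a trimmed mean of 99.96 to 99.97, so each difference is relative to the other genes on the array. Ratios of spiked-in control RNA were above 2 in 6 arrays, of which none was from anti-IgD with vehicle. The ratio of 3′ to 5′ signal of Gapdh was above 1 in 2 arrays, PBS with vehicle replicate 4 and anti-IgD with PF-303 replicate 1. Follicular B-cell markers (6 of 8 on the array) had summed signals of 19845 to 37174 in PBS with vehicle, 19801 to 34332 in PBS with PF-303, 14168 to 16847 in anti-IgD with vehicle and 19984 to 29370 in anti-IgD with PF-303. T-cell markers summed to between 44.0 and 134 on every array, and 4 of the 6 on the array passed the filter, all but Cd3e and Cd4. Macrophage and monocyte markers summed to between 957 and 3129, with overlapping ranges in the 4 groups. Plasma-cell markers, which matter for Prdm1 and Xbp1, summed to 4709 to 5334 in PBS with vehicle, 4241 to 6153 in PBS with PF-303, 2974 to 3915 in anti-IgD with vehicle and 3451 to 5376 in anti-IgD with PF-303. Most of that sum came from Jchain and Mzb1. Between PBS with vehicle and anti-IgD with vehicle, the Mzb1 mean went from 2475 to 1042 and that of Jchain from 2145 to 2031. The mean of Slamf7 went the other way, from 129 to 140. Of the 8 plasma-cell markers on the array 7 passed the filter, all but Tnfrsf17, a defining plasma-cell receptor. These are bulk samples, in which fewer cells of a type and less RNA per cell cannot be told apart.

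The first comparison asked what crosslinking the B-cell receptor did to the factors within 2 h in mice without the drug. Irf4, Irf8 and Prdm1 were higher after anti-IgD, and Spib, Pax5, Bcl6 and Pou2af1 were lower. Irf4 moved most, to 4.50 times its mean PBS signal, and Prdm1 reached 2.75 times. Spib, Pax5, Bcl6 and Pou2af1 fell to between 0.556 and 0.681 of their PBS means, while Ebf1, Bach2 and Xbp1 did not pass the test. The test was limma on log2(signal + 16) with Benjamini-Hochberg adjustment over 11104 genes and a threshold of 0.05, and each gene was represented by the probe set of highest mean signal. Of all genes tested, 47.9% passed in this comparison (17.4% higher and 30.6% lower), beside which stand 7 of 10 members, 3 higher and 4 lower. The median log2 fold change was -0.30 over the 10 members and -0.13 over all genes. The split of all called genes, 1928 higher and 3394 lower, depends on the scaling, and was 2777 higher and 2178 lower with the arrays shifted to one median.

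The upstream sequences of the 3 genes that rose are shown because these members moved together in the same direction. They are the 250 bases before the RefSeq start (GRCm38.p6), 5′ to 3′ in the orientation of the gene, and capitals mark the matches described after them.
Irf4, chr13:30748983-30749232, plus strand: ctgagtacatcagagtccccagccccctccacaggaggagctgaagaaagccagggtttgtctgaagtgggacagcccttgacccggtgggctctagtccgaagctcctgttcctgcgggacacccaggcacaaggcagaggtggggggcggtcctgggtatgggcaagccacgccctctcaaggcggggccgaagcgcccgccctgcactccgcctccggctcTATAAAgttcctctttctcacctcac
Irf8, chr8:120736108-120736357, plus strand: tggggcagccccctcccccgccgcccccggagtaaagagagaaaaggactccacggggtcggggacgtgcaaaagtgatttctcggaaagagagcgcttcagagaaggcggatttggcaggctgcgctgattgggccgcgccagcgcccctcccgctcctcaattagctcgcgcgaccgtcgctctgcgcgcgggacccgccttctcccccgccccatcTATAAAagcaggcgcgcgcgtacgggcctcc
Prdm1, chr10:44458749-44458998, minus strand: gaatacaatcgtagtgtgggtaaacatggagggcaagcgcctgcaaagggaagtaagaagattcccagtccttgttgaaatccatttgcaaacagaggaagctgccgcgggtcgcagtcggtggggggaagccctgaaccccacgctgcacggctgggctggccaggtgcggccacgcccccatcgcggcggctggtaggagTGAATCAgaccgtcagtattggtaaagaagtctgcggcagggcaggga
The capitals in Irf4 and Irf8 are the TATA-box letters TATAAA, found in 13.6% of 32851 RefSeq promoter windows of 300 bases (250 before the start and 50 after, both strands searched). In Prdm1 they are an AP-1 match, TGANTCA, found in 7.81% of those windows. Letters of an NF-kB site (GGNNTTTCC, 5.82% of windows), an EGR site (GCGTGGGCG, 0.612%), an octamer (ATGCAAAT, 1.74%), an ETS-IRF composite (GGAANNGAA, 8.24%), an interferon-response element (GAAANNGAA, 8.56%) and an EBF site (TCCCNNGGG, 6.56%) were not in the windows of these 3 genes. Over all 10 members, with 13 windows, the NF-kB letters were in windows of 2 genes (Bach2 and Ebf1), the ETS-IRF letters in 2 (Bach2 and Bcl6) and the interferon-response letters in 1 (Ebf1). In Bach2 the NF-kB match overlapped the ETS-IRF match, and in Ebf1 it overlapped the interferon-response match. The EGR, octamer and EBF letters were in none. The E-box letters CANNTG were in windows of 9 of the 10 members and in 72.3% of all windows, and are not in capitals. These letters and the genes shown were chosen after the expression values were seen, and a match is a description of the sequence only.

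Irf4 encodes an interferon regulatory factor whose amount sets the choice between germinal-centre and plasma-cell fates. Its signals were 496, 405, 503 and 615 in PBS with vehicle and 2178, 2063, 2288 and 2544 in anti-IgD with vehicle, a mean of 505 ± 86.2 (SD, n = 4) against 2268 ± 205 (SD, n = 4). Every anti-IgD array was above every PBS array, by a wide margin. The log2 fold change was 2.14 ± 0.12 (SE, limma adjusted p = 5e-12), rank 38 of 11104 genes by size.

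Prdm1 encodes BLIMP1, the repressor that ends the B-cell program in plasma cells. Its signals were low, 20.1, 32.1, 26.7 and 29.4 in PBS with vehicle and 66.2, 71.0, 85.6 and 74.7 in anti-IgD with vehicle. The groups did not overlap, and the highest PBS array was still under the lowest anti-IgD array. The log2 fold change was 1.07 ± 0.13 (SE, limma adjusted p = 3.1e-07), which the added 16 makes smaller than the ratio of the signals, 2.75.

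Irf8, the partner of PU.1 and SPIB in B cells, gave 2024, 2003, 2335 and 2424 in PBS with vehicle and 3248, 3356, 2843 and 3593 in anti-IgD with vehicle. The groups were again separate, with means of 2197 ± 215 and 3259.9 ± 313 (SD, n = 4 each). The log2 fold change was 0.57 ± 0.12 (SE, limma adjusted p = 0.00036).

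**Figure D1:**
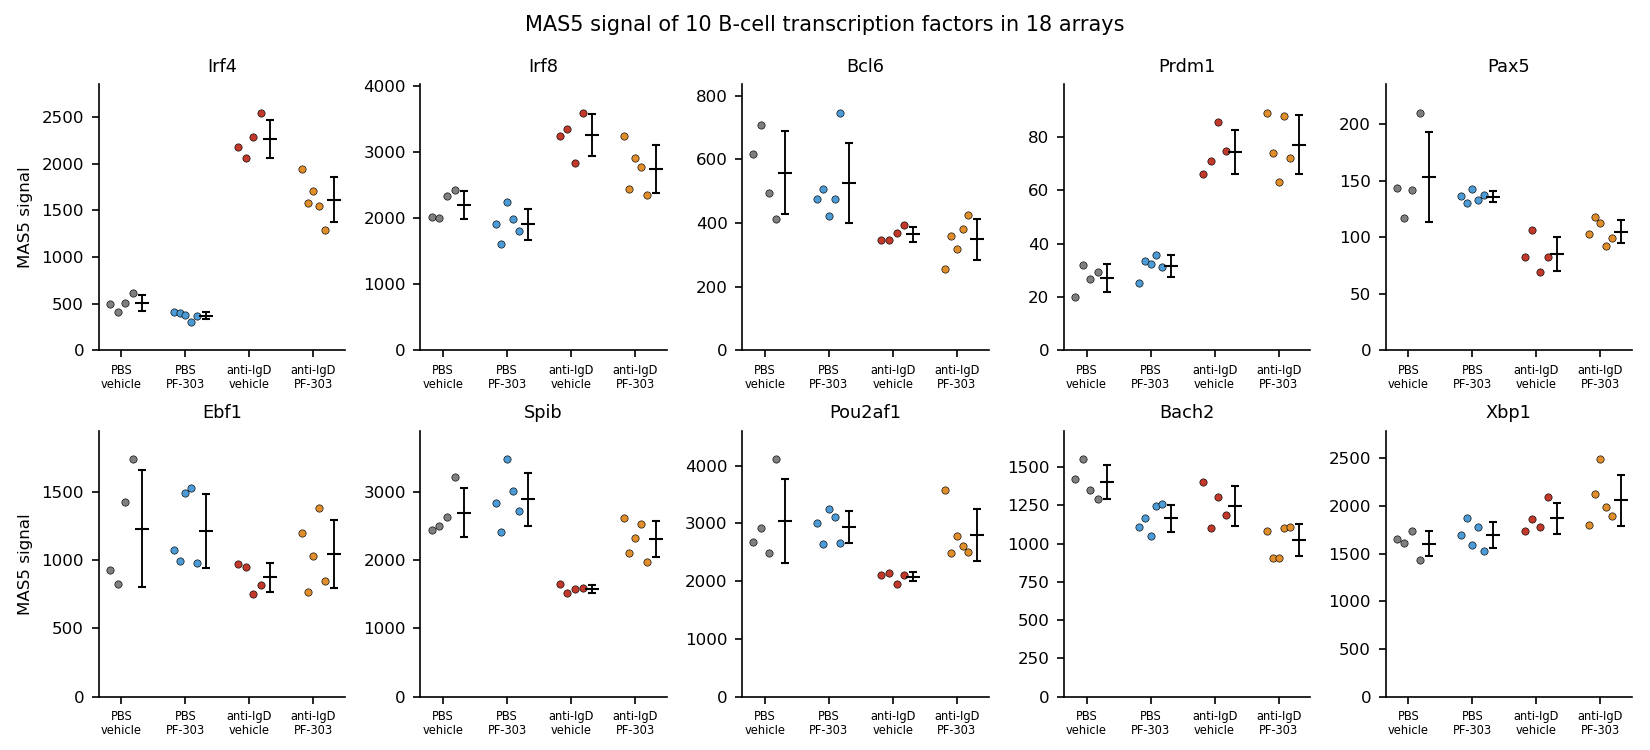
MAS5 signal of each of the 10 transcription factors on every array (points), by group, with the group mean and SD (bars), on linear axes that start at 0. Irf4 stands at 2063 to 2544 in anti-IgD with vehicle and at 405 to 615 in PBS with vehicle, and Spib is lowest in anti-IgD with vehicle, at 1509.8 to 1648.

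Spib, an ETS factor close to PU.1, showed the reverse pattern. Its signals were 2439.7, 2491, 2622 and 3212 in PBS with vehicle and 1648, 1509.8, 1569 and 1594 in anti-IgD with vehicle, so all 4 stimulated arrays lay below all 4 PBS arrays. The mean fell from 2691 ± 356 to 1580.2 ± 57.5 (SD, n = 4 each), a log2 fold change of -0.75 ± 0.12 (SE, limma adjusted p = 1.1e-05). Pou2af1, encoding the octamer coactivator OBF1, gave 2675, 2922, 2492 and 4105 against 2111, 2137, 1955 and 2102. PBS with vehicle replicate 4 was the high array, and the groups did not overlap with or without it. The log2 fold change of Pou2af1 was -0.52 ± 0.14 (SE, limma adjusted p = 0.0027), and it was -0.46 with an adjusted p of 0.08 when position was fitted as a block. Position here is the row letter of a code that the labels give each array without saying what it stands for.

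Pax5, the factor that commits cells to the B lineage, gave 144, 117, 142 and 210.1 in PBS with vehicle and 82.7, 106, 69.1 and 82.9 in anti-IgD with vehicle. The groups were close but separate, and PBS replicate 4 was again the high array. Its log2 fold change was -0.73 ± 0.13 (SE, limma adjusted p = 7.7e-05). Bcl6, the repressor that germinal-centre B cells depend on, gave 618, 707, 494 and 414 against 345, 348, 369 and 393. The lowest PBS array was just above the highest anti-IgD array, and the log2 fold change was -0.57 ± 0.16 (SE, limma adjusted p = 0.0063). Shifting the arrays to one median moved every fold change of this comparison by 0.16 (and by -0.11 and -0.12 in the second comparison and the difference of responses below). Under that shift that of Bcl6 was -0.40 with an adjusted p of 0.055.

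Ebf1, Bach2 and Xbp1 did not pass. Ebf1, which acts with Pax5, gave 924, 827, 1422 and 1735 in PBS with vehicle against 972, 952, 752 and 817, with a log2 fold change of -0.43 ± 0.21 (SE, 95% interval -0.86 to 0.01, limma adjusted p = 0.098). The PBS arrays fell into 2 low and 2 high values and overlapped the anti-IgD arrays. Without PBS with vehicle replicate 2 the Ebf1 value was -0.59 with an adjusted p of 0.024, without replicate 4 it was -0.24 with an adjusted p of 0.36, and without the 6 high spike-in arrays it was -0.01 with an adjusted p of 0.97. Those 6 include PBS with vehicle replicates 3 and 4, the 2 high values, so only replicates 1 and 2 of that group were left in that refit. Bach2, the repressor that holds back Prdm1, had a log2 fold change of -0.17 ± 0.10 (SE, 95% interval -0.37 to 0.03) and overlapping groups. Xbp1, the factor that expands the secretory machinery, had means of 1607 ± 127 in PBS with vehicle and 1870.2 ± 161 in anti-IgD with vehicle (SD, n = 4 each), with no overlap between groups. Its log2 fold change of 0.22 ± 0.10 (SE, 95% interval 0.01 to 0.43, limma adjusted p = 0.085) did not pass, and it was 0.38 with an adjusted p of 0.005 with the arrays shifted to one median.

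Row C of the position code held 1 array of each group, the only row with both. The log2 differences there were 2.61 for Irf4, 0.84 for Irf8, 0.91 for Prdm1, -0.64 for Spib, -0.43 for Pax5, -0.82 for Bcl6 and -0.47 for Pou2af1, each in the direction of the pooled value. The 4 members that fell did so in the group whose follicular B-cell marker sums, 14168 to 16847, lay below those of every other array. In the same contrast 4 of the 6 follicular markers were lower and none higher. Some of these markers, such as Cd79b and Cd22, are also among the PAX5 and EBF1 activated genes and the octamer targets counted below. The part of those markers in the fall of Spib, Pax5, Bcl6 and Pou2af1 was not tested.

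The next comparison asked how the BTK inhibitor changed the factors in stimulated mice, and set anti-IgD with PF-303 (n = 5) against anti-IgD with vehicle (n = 4). Anti-IgD with vehicle also enters the comparison above, so these comparisons share arrays. Irf4 and Bach2 were lower with PF-303, and Spib and Pou2af1 were higher. With 4 of 10 members called, 2 higher and 2 lower, the background was 30.2% of all genes, 19.8% higher and 10.4% lower. The median log2 fold change was 0.09 over the members and 0.08 over all genes. Of all called genes 2202 were higher and 1150 lower, against 1283 and 1695 with the arrays shifted to one median.

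Irf4 gave 1948, 1580.1, 1706, 1543 and 1294 in anti-IgD with PF-303, a mean of 1614 ± 239 (SD, n = 5). All 5 arrays were below the 4 arrays of anti-IgD with vehicle and above all PBS arrays. The log2 fold change against anti-IgD with vehicle was -0.49 ± 0.12 (SE, limma adjusted p = 0.0022). Bach2 gave 1401, 1102, 1302 and 1187 with vehicle and 1080.4, 909, 907, 1105 and 1109.6 with PF-303. The groups overlapped slightly, and the log2 fold change was -0.28 ± 0.09 (SE, limma adjusted p = 0.021). That call did not hold without anti-IgD with vehicle replicate 1 (-0.23) or 4 (-0.26), or without anti-IgD with PF-303 replicate 2 (-0.24) or 3 (-0.24). With the mean over its probe sets the Bach2 value was -0.09 with an adjusted p of 0.43.

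Spib gave 2608, 2102, 2322, 2521 and 1975 in anti-IgD with PF-303, a mean of 2306 ± 269 (SD, n = 5). All 5 lay above the anti-IgD arrays with vehicle, and they overlapped the PBS arrays. The log2 fold change was 0.53 ± 0.11 (SE, limma adjusted p = 0.00067). Pou2af1 gave 3572, 2485, 2785, 2608 and 2513, again all above the anti-IgD arrays with vehicle, with replicate 1 the high array. Its log2 fold change was 0.41 ± 0.13 (SE, limma adjusted p = 0.018), and it was 0.32 with an adjusted p of 0.054 without that array and 0.38 with an adjusted p of 0.052 without anti-IgD with vehicle replicate 4. With the arrays shifted to one median it was 0.30 with an adjusted p of 0.09. In the same contrast 3 of the 6 follicular markers were higher and none lower, and their part in these rises was not tested.

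The other 6 members did not pass. Prdm1 signals were 89.0, 74.0, 63.1, 87.7 and 72.1 in anti-IgD with PF-303, which spread around those with vehicle, and its log2 difference was 0.04 ± 0.12 (SE, 95% interval -0.21 to 0.29). Irf8 gave 3244, 2444, 2916, 2775 and 2350.2, a log2 difference of -0.25 ± 0.11 (SE, 95% interval -0.48 to -0.02, limma adjusted p = 0.093). Replicate 1 was the high array, and without it the Irf8 difference was -0.31 with an adjusted p of 0.039. With the replicate number fitted as a block it was -0.29 with an adjusted p of 0.048. The difference was 0.27 ± 0.12 for Pax5 (SE, 95% interval 0.01 to 0.52), and it passed in limma without PBS with vehicle replicate 4 (0.27, adjusted p = 0.046) or without anti-IgD with vehicle replicate 2 (0.36, adjusted p = 0.04). The intervals of the other members held 0, with -0.40 to 0.24 for Bcl6, -0.18 to 0.64 for Ebf1 and -0.07 to 0.33 for Xbp1. In row C of the position code, with 2 PF-303 arrays and 1 vehicle array, the log2 differences were -0.67 for Irf4, -0.11 for Bach2, 0.51 for Spib and 0.51 for Pou2af1. With the row as a block in limma the Bach2 value was -0.13 (adjusted p = 0.54) and that of Pou2af1 0.39 (adjusted p = 0.19), neither called.

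**Figure D2:**
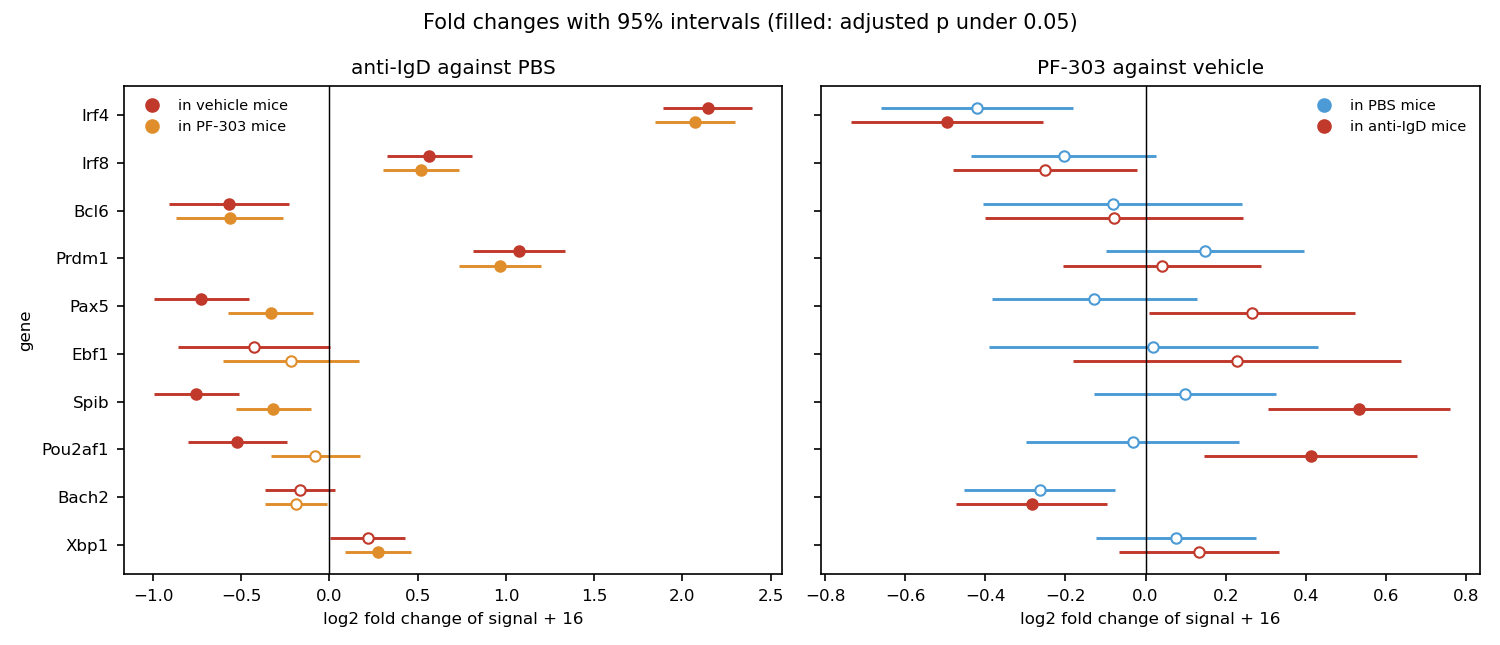
Log2 fold changes with 95% intervals for the 10 factors, anti-IgD against PBS on the left (vehicle and PF-303 mice) and PF-303 against vehicle on the right (PBS and anti-IgD mice), with filled points for adjusted p under 0.05. Irf4 stands at 2.14 and 2.07 on the left, and on the right Spib is at 0.10 in PBS mice and 0.53 in anti-IgD mice.

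In PBS mice, where the comparison asked what PF-303 did without stimulation, 0 of 10 members passed with limma, against 0.747% of all genes. At an unadjusted p under 0.05 there were 2 members, Irf4 and Bach2. The 0.747% is at the adjusted threshold, and no share of all genes was counted for unadjusted p. Irf4 gave 407, 399, 373, 308 and 366 in PBS with PF-303, with 1 array, replicate 1, above the lowest vehicle array. The log2 difference of Irf4 was -0.42 ± 0.12 (SE, 95% interval -0.66 to -0.18, limma adjusted p = 0.1). It passed when PBS with vehicle replicate 2, the lowest array of its group, was left out, at -0.52 with an adjusted p of 0.04. Bach2 gave 1423, 1549.8, 1349 and 1289.9 with vehicle and 1109, 1167, 1048, 1244 and 1259.7 with PF-303. These groups did not overlap, and the log2 difference was -0.26 ± 0.09 (SE, 95% interval -0.45 to -0.08, limma adjusted p = 0.24). The other 8 members had log2 differences between -0.20 (Irf8) and 0.15 (Prdm1). Within rows B, F and G of the position code Irf4 differed by -0.78, -0.27 and -0.41, and Bach2 by -0.10, -0.35 and -0.36.

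In PF-303-treated mice, anti-IgD against PBS called 7 of 10 members, 4 higher and 3 lower, with 33.8% of all genes called (14.7% higher, 19.1% lower). The median log2 fold change was -0.13 over the members and -0.05 over all genes. Irf4 rose by 2.07 ± 0.11, Prdm1 by 0.96 ± 0.11 and Irf8 by 0.52 ± 0.10 (log2, SE), with limma adjusted p of 2.1e-12, 5.5e-07 and 0.00047. In each of these 3 genes every anti-IgD array was above every PBS array: Prdm1 signals of 25.1, 33.6, 32.2, 35.9 and 31.3 in PBS with PF-303 stood against 63.1 to 89.0 after anti-IgD. Irf8 went from 1912, 1605, 2237, 1987 and 1801 to a lowest value of 2350.2. How many of all genes separate as fully was not counted in any comparison, so separation is given as a description only. Xbp1 was also higher, by 0.27 ± 0.09 (SE, limma adjusted p = 0.023), from 1693, 1878, 1594, 1781 and 1530.3 to 1804, 2124, 2489.6, 1991 and 1894.

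Bcl6 fell to a mean of 348 ± 65.0 from 526 ± 127 (SD, n = 5 each), a log2 fold change of -0.56 ± 0.15 (SE, limma adjusted p = 0.0044). The groups overlapped slightly, with the highest anti-IgD array at 425 and the lowest PBS array at 423. PBS with PF-303 replicate 5, at 746, stood above the rest of its group, which lay between 423 and 508. Pax5 gave 137, 131, 143, 133 and 137 in PBS with PF-303 and 103, 118, 112, 92.2 and 99.6 after anti-IgD, with no overlap. Its log2 fold change was -0.33 ± 0.12 (SE, limma adjusted p = 0.03). The Pax5 call was lost, at log2 values of -0.33 to -0.29, without PBS with PF-303 replicate 1, 3 or 5 and without anti-IgD with PF-303 replicate 1, 4 or 5. It was also lost with no filter on signal (-0.33, adjusted p = 0.05 in limma), with one median (-0.29, 0.058) and after quantile normalization (-0.28, 0.074). Spib fell from 2830.1, 2405, 3469.6, 3005 and 2715 by 0.32 ± 0.10 (log2, SE, limma adjusted p = 0.019), with overlapping groups. The Spib call was lost without PBS with PF-303 replicate 3 (-0.25) and without anti-IgD with PF-303 replicate 2 (-0.29) or 5 (-0.27), and the Xbp1 call without PBS with PF-303 replicate 3 (0.25) or 5 (0.24) or anti-IgD with PF-303 replicate 3 (0.20). The Xbp1 call was also lost after quantile normalization (0.18) and without the 6 high spike-in arrays (0.24). Pou2af1 gave 3009, 2644, 3247, 3113 and 2662 in PBS with PF-303, a log2 difference of -0.08 ± 0.12 (SE, 95% interval -0.33 to 0.17) from the anti-IgD arrays. Within rows F and G of the position code the log2 differences were 1.97 and 2.00 for Irf4, 1.04 and 1.11 for Prdm1, 0.48 and 0.31 for Irf8, 0.44 and 0.32 for Xbp1, -0.47 and -0.14 for Bcl6, -0.22 and -0.56 for Pax5, and -0.36 and -0.46 for Spib. With the row as a block the Pax5 (-0.20), Spib (-0.28) and Xbp1 (0.24) calls were lost.

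Whether the response to anti-IgD itself differed between drug-treated and vehicle-treated mice was tested as the difference of the 2 responses, which uses all 4 groups. By limma 0 of 10 members passed, against 9.78% of all genes, both at the adjusted threshold. No share of all genes was counted for unadjusted p, so a count there is no result about the members. An unadjusted p under 0.05 was found for 3 members. These were Spib, with a response of -0.75 in vehicle mice and -0.32 in PF-303 mice (difference 0.44 ± 0.15, SE, limma adjusted p = 0.076), Pou2af1, with -0.52 and -0.08 (0.44 ± 0.18, adjusted p = 0.13), and Pax5, with -0.73 and -0.33 (0.39 ± 0.17, adjusted p = 0.17). The fitted response of all 3 was nearer 0 in the drug-treated mice, with no difference passing the adjusted test. The Spib difference passed without PBS with PF-303 replicate 3, at 0.50 with an adjusted p of 0.033. For Irf4 the difference was -0.07, with a 95% interval of -0.41 to 0.26, and for Prdm1 it was -0.11, with an interval of -0.46 to 0.24. Irf8 (-0.37 to 0.28) and Bcl6 (-0.45 to 0.46) also had intervals that held 0. The median difference was 0.03 over the members and 0.07 over all genes.

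The 4 group levels of each gene were also set in order. For this, 2 further contrasts were used: anti-IgD with PF-303 against PBS with vehicle, which called 25.5% of all genes, and anti-IgD with vehicle against PBS with PF-303, which called 52.4%. Each called 7 of the 10 members. Irf4 was highest in anti-IgD with vehicle, then anti-IgD with PF-303, PBS with vehicle and PBS with PF-303, with the upper 2 steps called (log2 0.49 and 1.65) and the lowest not (0.42). Prdm1 had 1 called step, of 0.92, between both anti-IgD groups and both PBS groups. Irf8 had 1 called step at the same place, of 0.31 (limma adjusted p = 0.041) between anti-IgD with PF-303 and PBS with vehicle. That Irf8 step was called under 20 of 32 alternatives, and was lost at 0.25 to 0.31 without PBS with vehicle replicate 1 or 2, PBS with PF-303 replicate 1, or anti-IgD with PF-303 replicate 1, 3 or 4. Bcl6 and Pax5 were both higher in the PBS groups, with a called step of 0.49 for Bcl6 and 0.33 for Pax5 between the lower PBS group and the higher anti-IgD group. For Spib and Pou2af1 the called step, of 0.53 and 0.41, separated anti-IgD with vehicle from the other 3 groups, among which no neighbouring step was called. Between groups that were not neighbours, Spib was still lower in anti-IgD with PF-303 than in PBS with PF-303. That log2 difference was -0.32 ± 0.10 (SE, limma adjusted p = 0.019), a call kept under 28 of 32 alternatives. For Pou2af1 it was -0.08 ± 0.12 (SE, limma adjusted p = 0.66). Ebf1, Bach2 and Xbp1 had no called step between neighbours. Across the whole order, Bach2 was lower in anti-IgD with PF-303 than in PBS with vehicle by a log2 of -0.45 ± 0.09 (SE, limma adjusted p = 0.00064), and Xbp1 was higher by 0.35 ± 0.10 (SE, limma adjusted p = 0.0094).

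Of the 10 genes, 7 had more than 1 probe set. The 2 sets of Pax5 had the same calls throughout, and in Irf4, Irf8, Bcl6, Ebf1, Bach2 and Xbp1 the sets differed in at least 1 call. Fitted one by one over 24947 probe sets, 15 of 23 member probe sets passed for anti-IgD in vehicle mice (40.2% of all probe sets), 7 for PF-303 in anti-IgD mice (26.0%), 0 for PF-303 in PBS mice (0.565%), 13 for anti-IgD in PF-303 mice (26.8%) and 1 for the difference of responses (6.43%). No member probe set was called in a direction opposite to another called probe set of its gene. The files used here give no target positions for these probe sets, so which part of a transcript each reads is not stated.

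The 1 member probe set called for the difference of responses was the second set of Irf4, 1421174_at. Its signals were 41.7, 42.9, 43.1 and 39.2 in PBS with vehicle and 41.9, 42.0, 47.5, 34.8 and 37.4 in PBS with PF-303. They were 132, 177, 167 and 193 in anti-IgD with vehicle and 84.4, 80.6, 114, 78.0 and 83.3 in anti-IgD with PF-303. The PBS groups lay on top of each other, and the anti-IgD groups were apart from them and from each other. Its log2 response was 1.66 ± 0.12 in vehicle mice and 0.87 ± 0.11 in PF-303 mice (SE), a difference of -0.79 ± 0.16 (SE, limma adjusted p = 0.0055). For the chosen set, 1421173_at, the difference was -0.07 ± 0.17 (SE, limma adjusted p = 0.85). In anti-IgD mice the effect of PF-303 was -0.81 ± 0.11 by the second set and -0.49 ± 0.12 by the chosen one, and in PBS mice -0.03 and -0.42. Both sets thus gave a lower Irf4 signal with PF-303 after anti-IgD, and their values in PBS mice were apart, a gap between sets that was not tested.

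The 2 sets of Irf8 also differed in a call. The second, 1448452_at, gave 2218, 2292, 2156 and 2278 in anti-IgD with vehicle and 1773, 1444, 1613, 1722 and 1490.5 in anti-IgD with PF-303, with no overlap. The PF-303 effect on this set was -0.48 ± 0.09 (log2, SE, limma adjusted p = 0.00053), where the chosen set did not pass. After anti-IgD it rose by 0.80 ± 0.10 in vehicle mice and 0.54 ± 0.09 in PF-303 mice (SE), both called, and both these and the PF-303 effect were called under all 29 alternatives. The difference of responses was -0.26 ± 0.13 (SE, limma adjusted p = 0.25). The second Bach2 set, 1437667_a_at, gave 1141, 1174, 1436 and 1538 in PBS with vehicle, and 1057, 869, 885 and 975 in anti-IgD with vehicle. It fell by 0.47 ± 0.12 (log2, SE, limma adjusted p = 0.0027) after anti-IgD in vehicle mice, where the chosen set did not pass, and its difference between PF-303 and vehicle in anti-IgD mice was -0.05 (adjusted p = 0.78). The third Bach2 set, 1445460_at, fell by 0.39 ± 0.15 (SE, limma adjusted p = 0.045) in the vehicle comparison, a call kept under 14 of 29 alternatives. Among the arrays of the 2 vehicle groups, it was lost without PBS replicate 3 (-0.32) or 4 (-0.36), or anti-IgD replicate 2 (-0.36) or 4 (-0.26).

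**Figure D3:**
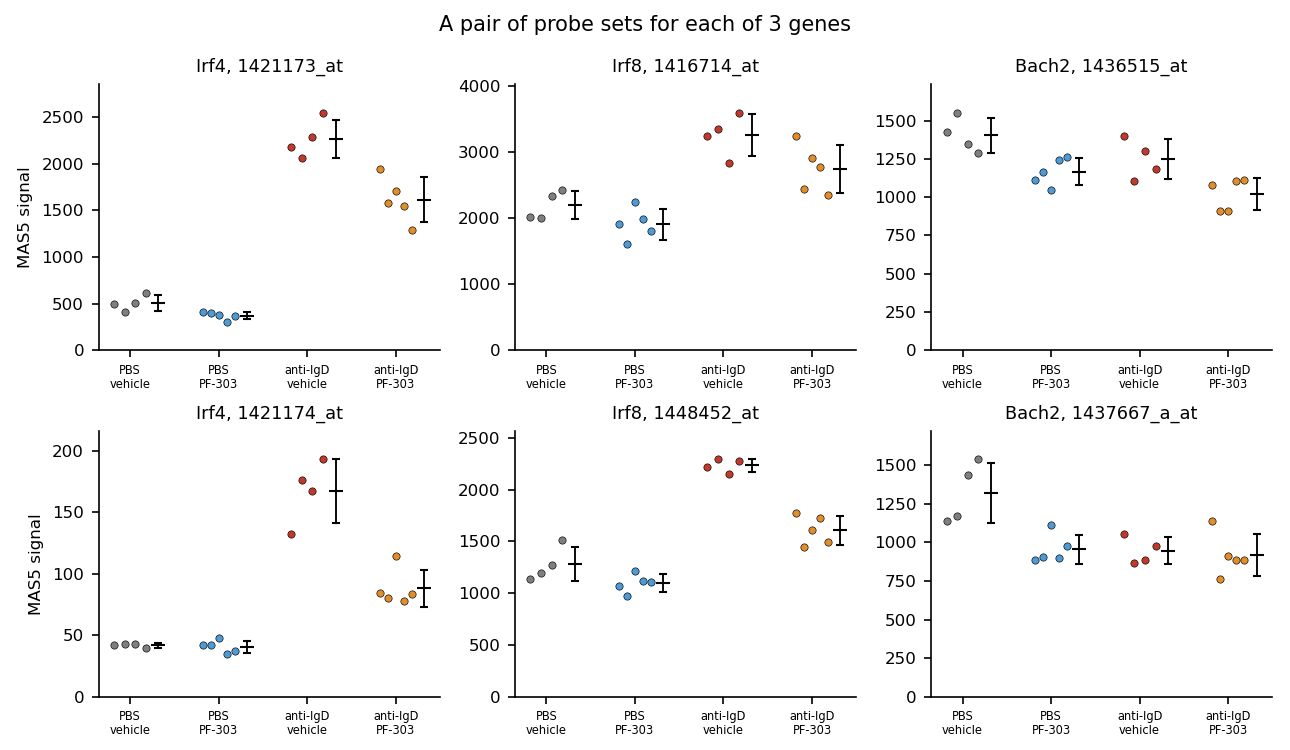
Signals of 2 probe sets each of Irf4, Irf8 and Bach2 on every array (points) by group, with mean and SD (bars), on linear axes that start at 0. The second Irf4 set, 1421174_at, is at 132 to 193 in anti-IgD with vehicle and 78.0 to 114 in anti-IgD with PF-303, and levels of different sets cannot be set against each other.

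For Ebf1, 2 sets other than the chosen one passed in the vehicle comparison, 1439789_at at -0.42 ± 0.08 (SE, limma adjusted p = 0.00035) and 1448293_at at -0.22 ± 0.08 (SE, limma adjusted p = 0.03). The first was called under all 29 alternatives run for it, and the second under 21, not without PBS with vehicle replicate 1 (-0.18) or 4 (-0.20) or anti-IgD with vehicle replicate 1 (-0.22) or 4 (-0.19). Set 1439789_at gave 347, 384, 334 and 382 in PBS with vehicle and 285, 232, 277 and 273 in anti-IgD with vehicle, without overlap and with less spread than the chosen set. PF-303 raised it in anti-IgD mice by 0.27 ± 0.08 (SE, limma adjusted p = 0.015), to 326, 354, 319, 319 and 306, though without anti-IgD with vehicle replicate 2 that rise was 0.21 with an adjusted p of 0.073. A further Ebf1 set, 1416302_at, had -0.24 with an adjusted p of 0.064 (-0.29 with 0.034 without PBS with vehicle replicate 2), and the fifth, 1457441_at, had group means of 13.3 to 15.5, near the level of the filter. The second Pax5 set, 1454401_at, fell by 0.86 ± 0.16 in vehicle mice and 0.68 ± 0.14 in PF-303 mice (log2, SE), both called. The second Bcl6 set, 1450381_a_at, fell by 0.76 ± 0.17 in vehicle mice (SE, limma adjusted p = 0.00087) and had -0.23 in PF-303 mice (adjusted p = 0.28). Among the other 3 sets of Xbp1, 1420886_a_at rose in PF-303 mice by 0.33 ± 0.12 (SE, limma adjusted p = 0.045), a call kept under 14 of 29 alternatives and lost, among others, without any 1 of the 5 PBS with PF-303 arrays (0.30 to 0.36). The suffix s in the chosen Xbp1 set, 1437223_s_at, marks probes that can match more than 1 transcript.

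Other genes of the network were read from 6 lists of textbook members and targets, which share some genes (Myc, Cd79b and S1pr1 among them). Of 36 other B-lineage transcription factors measured, 20 were lower and 6 higher after anti-IgD in vehicle mice, with a median log2 fold change of -0.41. The share of all genes was 30.6% lower and 17.4% higher, so the 6 higher are near the background. The largest rises were Bhlhe40, a basic helix-loop-helix repressor, at 2.49 ± 0.10, and Myb, a factor of early lymphoid cells, at 1.56 ± 0.19. The largest falls were Pou2f2, which encodes OCT2, at -1.45 ± 0.26, and Tcf3, which encodes the E proteins E12 and E47, at -1.42 ± 0.10. With PF-303 in anti-IgD mice 10 of the 36 were higher and 5 lower, against 19.8% and 10.4% of all genes, led by Ets1 at 0.91 ± 0.13 and Hhex at 0.85 ± 0.10, against Myb at -1.44 ± 0.18. Nfil3 was also called lower, but its group means, from 5.69 to 15.3, lay about or under the filter level, so no fold is given for it. Errors of these and the following list genes are SE, and the genes named with a value passed limma at the threshold. Under one median or quantile normalization the medians of the 6 lists kept their signs in both comparisons, and that of the transcription factors with PF-303 was 0.01 under one median.

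Genes that PAX5 and EBF1 activate mostly fell after anti-IgD in vehicle mice: 15 of 18 were lower and 1 higher, with a median of -0.52. Among the 18 are the follicular markers Cd79a, Cd79b, Cd22, Cr2 and Fcer2a, and the octamer list below holds Cd79b, Cd22 and Ms4a1. These list counts and the follicular marker sums thus share genes. Ralgps2, a guanine exchange factor, fell by 1.56 ± 0.08 and Cd55, a complement regulator, by 1.38 ± 0.10, while Cd72, an inhibitory coreceptor, rose by 0.76 ± 0.09. PF-303 in anti-IgD mice raised 9 of the 18 and lowered 1, with a median of 0.33. Ralgps2 rose by 0.86 ± 0.08 and Cd79b, a signalling chain of the B-cell receptor, by 0.75 ± 0.22, and the gene that fell was Cd72, at -0.25 ± 0.09. Octamer and OBF1 targets gave 0 higher and 7 lower of 9 after anti-IgD (median -0.57) and 5 higher and 0 lower with PF-303 (median 0.52). Pou2f2 and Cd79b (-1.09 ± 0.23) fell most, and S1pr1, the receptor for exit from lymphoid organs, rose most with PF-303, by 1.31 ± 0.11. The all-gene medians of these 2 comparisons were -0.13 and 0.08. Of all genes, 17.4% were higher and 30.6% lower in the first, and 19.8% higher and 10.4% lower in the second.

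**Figure D4:**
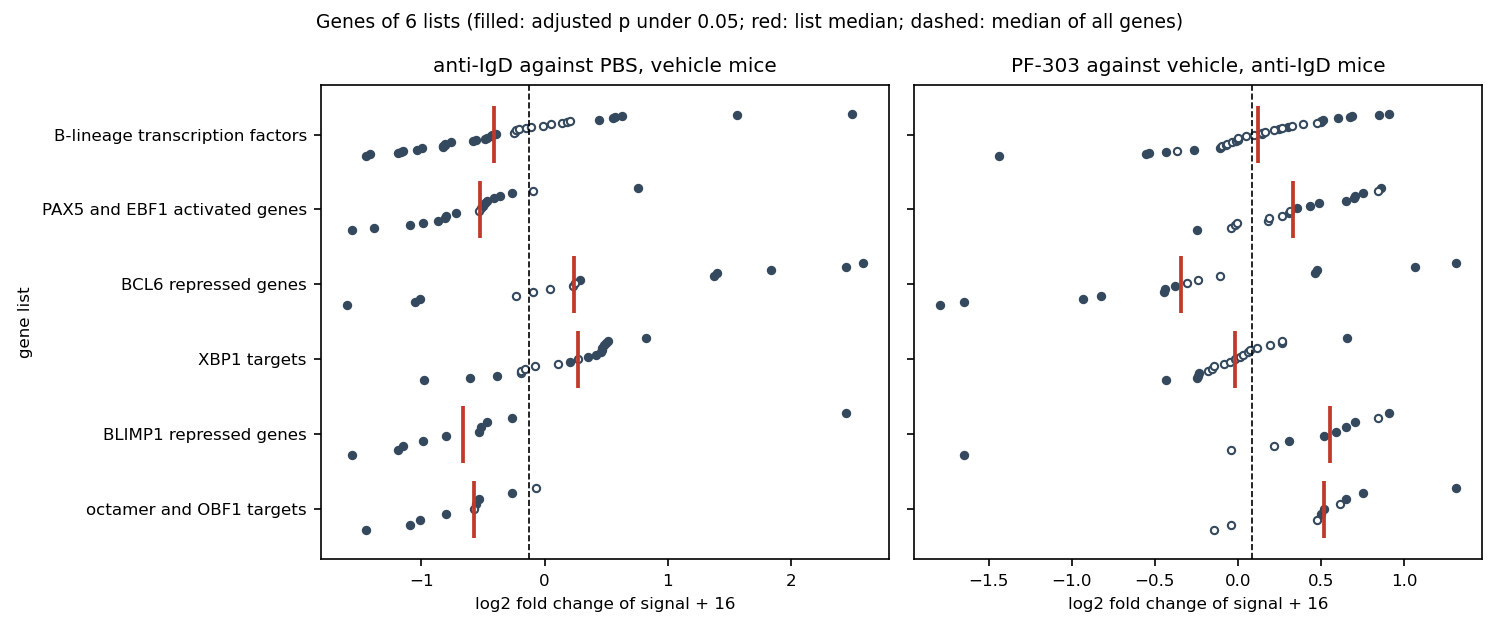
Log2 fold changes of the genes in 6 lists (points) for anti-IgD against PBS in vehicle mice (left) and PF-303 against vehicle in anti-IgD mice (right), with the median of each list (red line) and of all genes (dashed line). The median of the PAX5 and EBF1 activated genes is -0.52 on the left and 0.33 on the right, and that of the XBP1 targets 0.27 and -0.02.

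Among genes that BCL6 represses, 6 of 14 were higher and 3 lower after anti-IgD in vehicle mice (median 0.24). The shares of all genes were 17.4% higher and 30.6% lower there, and 19.8% and 10.4% with PF-303 in anti-IgD mice. Ccl3, a chemokine, was called higher, with mean signals of 8.45 in PBS with vehicle, under the filter level, and 127 in anti-IgD with vehicle, so the size of its fold is not given. Myc, the growth regulator, rose by 2.44 ± 0.13, while Cdkn1b, a cell-cycle inhibitor, fell by 1.60 ± 0.09 and Bcl2, which protects cells from death, by 1.05 ± 0.15. PF-303 in anti-IgD mice gave 4 higher and 7 lower (median -0.34), with Ccl3 at a mean signal of 25.7 (called lower), Myc at -1.65 ± 0.13, S1pr1 at 1.31 ± 0.11 and Cdkn1b at 1.06 ± 0.09. Genes that BLIMP1 represses gave 1 higher and 9 lower of 10 after anti-IgD (median -0.66). The 1 that rose was Myc, and Syk, the kinase next to the receptor, fell most, by 1.56 ± 0.10, followed by Id3 at -1.19 ± 0.11. With PF-303 in anti-IgD mice 6 of these 10 were higher and 1, Myc, lower (median 0.55), led by Ets1 and by Ciita, the master regulator of MHC class II, at 0.71 ± 0.12. Prdm1 itself did not pass in that comparison.

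Among XBP1 targets, which serve protein folding and export, 10 of 19 measured were higher and 3 lower after anti-IgD in vehicle mice, with a median of 0.27. The shares of all genes were 17.4% higher and 30.6% lower there, and 19.8% and 10.4% with PF-303 in anti-IgD mice. Dnajb9, a chaperone cofactor of the endoplasmic reticulum, rose by 0.82 ± 0.12 and Sec61a1, the channel subunit, by 0.52 ± 0.09, while Pdia4 fell by 0.98 ± 0.13 and Sec24d by 0.61 ± 0.11. With PF-303 in anti-IgD mice 2 were higher and 4 lower (median -0.02), with Pdia4 at 0.66 ± 0.12, Sec61b at 0.27 ± 0.09, Dnajb9 at -0.43 ± 0.11 and Pdia6 at -0.25 ± 0.09. In PF-303 mice anti-IgD called 9 of the 19 higher and 1 lower, beside 14.7% higher and 19.1% lower of all genes. In the same mice it called 7 of the 18 PAX5 and EBF1 activated genes lower and 2 higher. Of the 36 transcription factors 16 were lower and 3 higher, and of the 10 BLIMP1 repressed genes 3 were lower and 2 higher. The 2 of 18 and 3 of 36 called higher are no more than the share of all genes. For the difference of responses, 5 of the 10 BLIMP1 repressed genes were called higher and 1 lower, and 3 of the 9 octamer targets higher and none lower, with 9.78% of all genes called either way. With the arrays shifted to one median these counts were 3 higher and 1 lower of 10, and 1 higher and 0 lower of 9. Over all genes the split was 740 higher and 346 lower, and 345 and 689 under that shift. Without the shift, 7 of the 36 transcription factors were higher and 2 lower. The PAX5 and EBF1 activated genes gave 3 higher and 0 lower of 18. BCL6 repressed genes gave 2 higher and 4 lower of 14, and XBP1 targets 1 and 1 of 19. PF-303 in PBS mice called 1 gene each in the transcription factor (Bhlhe40, -0.42 ± 0.10), PAX5 and EBF1 (Vpreb3, 0.48 ± 0.10), BCL6 and BLIMP1 lists (Myc in both, -0.96 ± 0.13), and none in the other lists. The share of all genes called there was 0.747%.

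The genes with the most similar pattern over the 18 arrays were named for each of the 7 members called after anti-IgD in vehicle mice, by Pearson correlation of log2(signal + 16). The 18 points share 4 group means and each array's scaling, so r is given as a description, followed by the r left after group means were taken out. For Irf4 the nearest were Fyn (0.995, then 0.875) and Per1 (0.990, then 0.730). For Prdm1 they were Tceal9 (0.965, then 0.336) and Prkx (0.959, then 0.237), where little likeness was left within groups. Irf8 was nearest to Ncl (0.966, then 0.854) and Srsf2 (0.955, then 0.787). Spib was nearest to Dpp4 (0.974, then 0.870) and Mgat1 (0.970, then 0.850), and Pou2af1 to Trp53i11 (0.947, then 0.883) and Nek7 (0.944, then 0.872). Pax5 was nearest to Themis2 (0.928, then 0.722) and Pias3 (0.920, then 0.706), and Bcl6 to Brwd1 (0.902, then 0.773) and Cpsf2 (0.895, then 0.861).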

How the data were processed

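Biotinylated cRNA from 150 ng of total RNA of each sample, copied from the 3′ end with the GeneChip 3' IVT Express kit, was hybridised to 1 array per sample, per the labels. The deposited values are linear probe-set intensities that the authors made with MAS5, per the submitters' processing notes, in which its version and settings are not given in the sources used here. Since MAS5 subtracts a mismatch signal, low values are noisy. Of 45101 probe sets, 64 were controls, 34945 had 1 platform symbol, 932 several and 9160 none, and 204 had no match in the RefSeq gene table (GRCm38.p6). Their target positions are not given here.

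Intensities were taken as log2(signal + 16). Probe sets above 15.2 in at least 4 arrays were kept, 24947 in all, and the one of highest mean was used per gene, which left 11104 genes. All 18 arrays entered 1 limma fit (limma 3.58.1, statmod 1.5.0, R 4.3.3, eBayes with trend, 1 mean per group, two-sided), with Benjamini-Hochberg adjustment within each contrast and calls under 0.05. The number of arrays limits the precision, and the median SE was 0.129 for anti-IgD in vehicle mice and 0.174 for the difference of responses. The procedure was tested on simulated data with independent noise and few changed genes. That run does not cover variation shared across genes or changes as widespread as those here. Tables and figures used Python 3.11.15, pandas 2.3.3, numpy 2.4.6 and matplotlib 3.10.9.

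The members, lists and tests were chosen with earlier results of these data known. Named genes were all members, the 2 largest rises and falls per list among called genes in a contrast, and for each member called after anti-IgD in vehicle mice the 2 genes of highest correlation. The cell-marker lists were follicular, marginal zone and B1, and germinal-centre B cells, plasma cells, T cells, NK cells, macrophages and monocytes, neutrophils, classical and plasmacytoid dendritic cells, and erythroid cells. Alternatives changed the added constant, filter, scaling, choice of probe set, variance model and blocks, or left out arrays. Of 24 pairs of same-numbered arrays, 7 had deviations correlated above 0.1 (range -0.161 to 0.225), so numbers were not taken to pair samples. No 2 arrays were identical. The upstream sequences and promoter windows come from RefSeq, with a window found for all 10 members.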

Additional observations from a re-analysis of the deposited data

Results flagged for a closer look

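Among 92 groups of signals, of 4 or 5 arrays for each of the 23 probe sets, 2 held an array far from the rest by Dixon's criterion, which chance meets in about 1 in 20 groups. The second Irf4 probe set, 1421174_at, stood at 114.28 in anti-IgD with PF-303 replicate 3, and the other arrays of that group lay between 78.0 and 84.4. That array was among the 6 with high spike-in signal, whose part in this value was not tested. The second Pax5 probe set, 1454401_at, stood at 40.783 in anti-IgD with vehicle replicate 5, below the 63.7 to 68.7 of its group.

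The anti-IgD response of Irf4 by probe set 1421174_at differed between drug-treated and vehicle-treated mice by a log2 of -0.79 ± 0.16 (SE, limma adjusted p = 0.0055 over all probe sets), the single member probe set called for that difference. It was called under all 29 alternatives run for it, between -1.02 and -0.59, with adjusted p from 0.0021 to 0.033. The chosen Irf4 set, 1421173_at, gave -0.07 ± 0.17 (SE, limma adjusted p = 0.85), and which set stands closer to the amount of Irf4 transcript was not tested.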

How the results depend on the processing

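Each chosen probe set was refitted under 32 alternatives and each other one under 29, and no called value turned its direction. Of 2240 values for the chosen probe sets, 2156 kept their side of the threshold, 49 lost a call and 35 gained one, and 66 with no call either way changed sign. For the other probe sets, of 1885 values, 1827 kept their side, 49 lost a call, 9 gained one and 68 without a call changed sign. After anti-IgD in vehicle mice Irf4, Irf8, Prdm1, Pax5 and Spib were called under all 32 alternatives. With position row as a block, the number of members called was 2 for PF-303 in anti-IgD mice (4 otherwise) and 4 for anti-IgD in PF-303 mice (7 otherwise). With the 6 high spike-in arrays left out, anti-IgD with PF-303 against PBS with vehicle called 4 members in place of 7. Refits change the calls over all genes as well, as given below, so these counts are no result about the members alone. For the difference of responses 1 member in place of 0 was called after quantile normalization (Spib, 0.42, adjusted p = 0.0073) and 1 with the mean over probe sets of a gene (Irf4, -0.43, adjusted p = 0.031). Leaving out 1 array at a time gave 2 to 5 members for PF-303 in anti-IgD mice (2 without anti-IgD with vehicle replicate 4), 0 to 1 for PF-303 in PBS mice, 4 to 7 for anti-IgD in PF-303 mice (4 without PBS with PF-303 replicate 3) and 0 to 1 for the difference of responses. The replicate number as a block changed 1 call of the members in these 4 comparisons and the difference of responses, that of Irf8 with PF-303 in anti-IgD mice (-0.29, adjusted p = 0.048). Irf8 in that comparison also passed after quantile normalization (-0.44, adjusted p = 3.5e-05), under one median (-0.36, adjusted p = 0.022) and without the 6 high spike-in arrays (-0.37, adjusted p = 0.0055). The Ebf1 and Bach2 values after anti-IgD in vehicle mice passed with the mean over probe sets (-0.26 and -0.34), while the Bach2 call with PF-303 in anti-IgD mice was lost (-0.09). After quantile normalization Ebf1 (-0.50) and Bach2 (-0.23) passed after anti-IgD in vehicle mice. Counts over all genes moved by over 1.5 times with position row as a block (3352 to 1725 for PF-303 in anti-IgD mice, 83 to 42 for PF-303 in PBS mice, 1086 to 291 for the difference of responses), without the high spike-in arrays (83 to 46, 1086 to 715) and with array weights (83 to 196). For PF-303 in PBS mice the count was 49, 52 and 42 without PBS with vehicle replicate 1, PBS with PF-303 replicate 1 and PBS with PF-303 replicate 4. The causes of these changes were not tested. The alternative without the arrays of high Gapdh ratio was chosen after seeing the data. Signals near background, as of Prdm1, Ebf1 set 1457441_at, Nfil3 and Ccl3, limit what can be said of small changes.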

Other observations

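Some members ran together from array to array inside a group and apart between groups. Irf8 and Spib had r = -0.617 over the 18 arrays and r = 0.838 after group means were taken out, and Irf8 and Ebf1 had -0.135 and 0.753. Spib and Pou2af1 ran together both ways (0.871 and 0.764), as did Ebf1 and Spib (0.733 and 0.812). Irf4 and Prdm1, with 0.909 over all arrays, had -0.033 within groups. Bcl6 ran against Irf8 (-0.781 and -0.665). In both PBS groups the highest Irf8, Spib and Ebf1 signals were on replicates 3 and 4, which were among the 6 arrays of high spike-in signal. In anti-IgD with PF-303 the high spike-in arrays, replicates 1 and 3, were the highest for Irf8, and not both for Spib or Ebf1. The part of spike-in signal in these r was not tested. The points share group means and each array's scaling, so these are descriptions.

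Other B-cell states were read from their markers. Germinal-centre markers summed to between 143 and 434 over all arrays, and of the 6 measured, 1 was higher and 1 lower after anti-IgD in vehicle mice. Mean signals in PBS with vehicle and anti-IgD with vehicle were 57.7 and 199 for Rgs13, 81.5 and 103 for Basp1, 30.04 and 17.93 for Fas, 29.24 and 17.97 for S1pr2, 21.5 and 13.0 for Gcsam and 15.2 and 11.3 for Mybl1. Marginal zone and B1 markers summed to between 5071 and 10172, and their highest value was in anti-IgD with PF-303. After anti-IgD in vehicle mice 2 of the 8 were higher and 3 lower, against 17.4% and 30.6% of all genes. Mean signals in PBS with vehicle and anti-IgD with vehicle were 627 and 1371 for S1pr3 and 18.4 and 45.7 for Cd5. They were 833 and 324 for Cd1d1 and 237 and 166 for Cd9. Plasmacytoid dendritic-cell markers summed to between 271 and 337 in the PBS arrays and 340 and 430 in the anti-IgD arrays. Of the 5 that passed the filter, 2 were higher and 1 lower after anti-IgD in vehicle mice, and Siglech did not pass the filter. Mean signals in PBS with vehicle and anti-IgD with vehicle were 14.2 and 76.2 for Ccr9 and 67.3 and 119 for Klk1. The means were lower after anti-IgD for Bst2 (156 and 139), Cox6a2 (25.5 and 16.9) and Lair1 (30.6 and 13.9). NK-cell markers summed to between 80.0 and 229, neutrophil markers to between 79.1 and 850, classical dendritic-cell markers to between 89.1 and 150 and erythroid markers to between 23.3 and 321.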
